A study of Bos taurus with 10 samples.

Results

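The genes described here are the heat shock proteins and the J-domain chaperones, 75 of the 21130 rows of a deposited table of muscle transcript levels. They were taken by symbol: the HSPA (HSP70), HSPB (small heat shock protein), HSPD, HSPE and HSPH genes, and the DNAJA, DNAJB and DNAJC genes. The HSP90 genes Hsp90aa1, Hsp90ab1 and Hsp90b1 and the heat shock factor genes Hsf1 and Hsf2 were taken by name. The symbol rule also brought in Hspbp1, Hspbap1 and Hspb11, which are not heat shock proteins in the usual sense. The table held 10 libraries, all labelled as muscle of cattle of 24 months. In 7 of them the label gave the genotype MSTN+/-, an edit of 1 copy of the gene of the growth inhibitor myostatin, and in 3 it gave wild type. Per the labels, RNA of every library was extracted with Trizol from frozen tissue and made into libraries by Illumina protocols. The labels name no animal, sex or batch for any library.

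Chaperones are proteins that help other proteins to fold, keep them from clumping and hand damaged ones on for degradation. HSP70 proteins bind short unfolded stretches in cycles of ATP hydrolysis, J-domain proteins bring them their clients and trigger that hydrolysis, and HSP90 proteins finish the folding of kinases and receptors. Each compartment has its own set: HSPA8 and HSP90AB1 in the cytosol, HSPA9 with the HSP60 and HSP10 chaperonin in the mitochondrion, and HSPA5 (BiP) and HSP90B1 (GRP94) in the endoplasmic reticulum (ER). HSF1 is the transcription factor that switches on the cytosolic set under heat or other protein damage, and in muscle the small heat shock proteins are known for protecting the contractile filaments.

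The labelled species and tissue did not match the contents. Of the 75 genes, 72 were described in the table as Mus musculus transcripts and 3 carried no description. No gene identifier of the 75 was found in the RefSeq gene table of cattle (assembly ARS-UCD2.0). All 75 symbols matched a symbol or synonym there when letter case was ignored. The 12 skeletal muscle markers summed to 24.2 to 53.0 FPKM among the MSTN+/- libraries and to 27.4, 162 and 133 FPKM for wild-type replicates 1, 2 and 3, where Mylpf alone gave 154.59 and 125.19 FPKM of the last 2 sums. Acta1 reached 24.43 FPKM in wild-type replicate 1 and Myh2 15.29 FPKM in an MSTN+/- library. Of these markers, 4 stayed below 1 FPKM (fragment counts corrected for the length of the transcript and for how many fragments the library mapped) in all 10 libraries, among them the titin gene Ttn at 0.01 to 0.40 FPKM. The 10 pluripotency markers summed to 906 to 1562 FPKM among the MSTN+/- libraries and to 2.29, 2711 and 3095 FPKM for wild-type replicates 1, 2 and 3, and Zfp42 and Utf1 were listed at 0 in replicate 1. Pou5f1 did not follow the sum, at 633.00 to 847.89 FPKM among the MSTN+/- libraries and 345.63 and 533.37 FPKM for replicates 2 and 3, nor did Sox2. The 10 fibroblast markers, with most of the sum from Col1a1, Col1a2 and Col3a1, summed to 2855 to 5897 FPKM among the MSTN+/- libraries and to 6202, 384 and 265 FPKM in those 3. Dcn, at 168.64 to 323.66 FPKM, was lower in replicate 1, at 24.27 FPKM, and so was Lum. Of 8 blood cell markers 7 were found, and 6 of these stayed below 1 FPKM throughout, while the macrophage gene Lyz2 reached 9.81 FPKM in wild-type replicate 1. Across genes, which are not independent replicates, wild-type replicate 1 correlated at 0.773 and 0.751 with its 2 fellow libraries and at 0.847 to 0.876 with the MSTN+/- libraries. The groups are therefore named by their labels only, and the wild-type libraries are given singly. The part of these cell type markers in the results below was not tested, and in bulk samples fewer cells of a type and less RNA per cell cannot be told apart.

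The chaperone genes took up a larger share of the transcript total in wild-type replicates 2 and 3 than in any other library. Together the 75 genes made up 0.903% to 1.28% of the FPKM total in the 7 MSTN+/- libraries (median 1.16%), and 1.37%, 2.37% and 2.12% in wild-type replicates 1, 2 and 3. Most of that came from a few cytosolic genes. Hspa8, Hsp90ab1 and Hsp90aa1 held 51.8% to 57.2% of the chaperone total in the MSTN+/- libraries, 46.7% in wild-type replicate 1, and 65.3% and 63.1% in replicates 2 and 3. Only 9 of the 75 genes had a mean of at least 100 FPKM over the libraries. Of the 75, 5 stayed below 1 FPKM in all 10 libraries: Dnajb7, Dnajc5b, Dnajc5g, Hspb3 and Hspb9.

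Between the labelled groups, 15 chaperone genes were higher and 15 lower in the MSTN+/- libraries, and 38 did not pass the threshold. The test was limma on log2(FPKM + 1), so a log2 change is on that scale and understates low genes. It ran over the 14047 genes that reached 1 FPKM in 3 libraries or more, with p-values adjusted over them all and a threshold of 0.05. Of the 75 genes 68 entered it, and Hspa1l and Dnajc22 stayed out besides the 5 just named. Of all genes tested 31.8% were higher and 12.8% lower, against 22.1% of the chaperone genes in each direction. The median log2 change was -0.12 for the 68 genes and 0.17 for all genes. Scaling moved that split, as it did for all genes: 50% of the chaperone calls were higher as deposited, 27% under median-of-ratios scaling and 24.2% under quantile normalization, where 71.3%, 50.3% and 42.7% of the calls over all genes were. For 12 of the 68 genes the whole MSTN+/- range lay above all 3 wild-type values, and for 7 below, against 25.2% and 6.86% of all genes tested.

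The 3 wild-type libraries did not move together. Both wild-type replicates 2 and 3 lay above all 7 MSTN+/- libraries for 30 of the 68 genes and below them for 23, against 31.7% and 42.0% of all genes. Wild-type replicate 1 lay above the MSTN+/- range for 21, below it for 22 and within it for 25, against 19.8%, 50.0% and 30.2% of all genes. It was the highest of the 10 libraries for 14 and the lowest for 12, against 13.8% and 31.3% of all genes. The test was therefore repeated against each part of the wild-type group, in fits that share the 7 MSTN+/- libraries. Against wild-type replicates 2 and 3, 24 chaperone genes were higher in the MSTN+/- libraries and 29 lower, where 42.2% and 31.9% of all genes were. Against wild-type replicate 1 alone, in a fit that assumes this library varies like the 7, 10 of 66 were higher and 12 lower, where 33.7% and 10.8% of all genes were. Hspa9 and Dnajc13 were lower in both fits. Dnajc18, Dnajc28, Dnajc30, Dnajc4, Dnajc5, Hspa12b, Hspb2 and Hspb8 were higher in both.

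**Figure D1:**
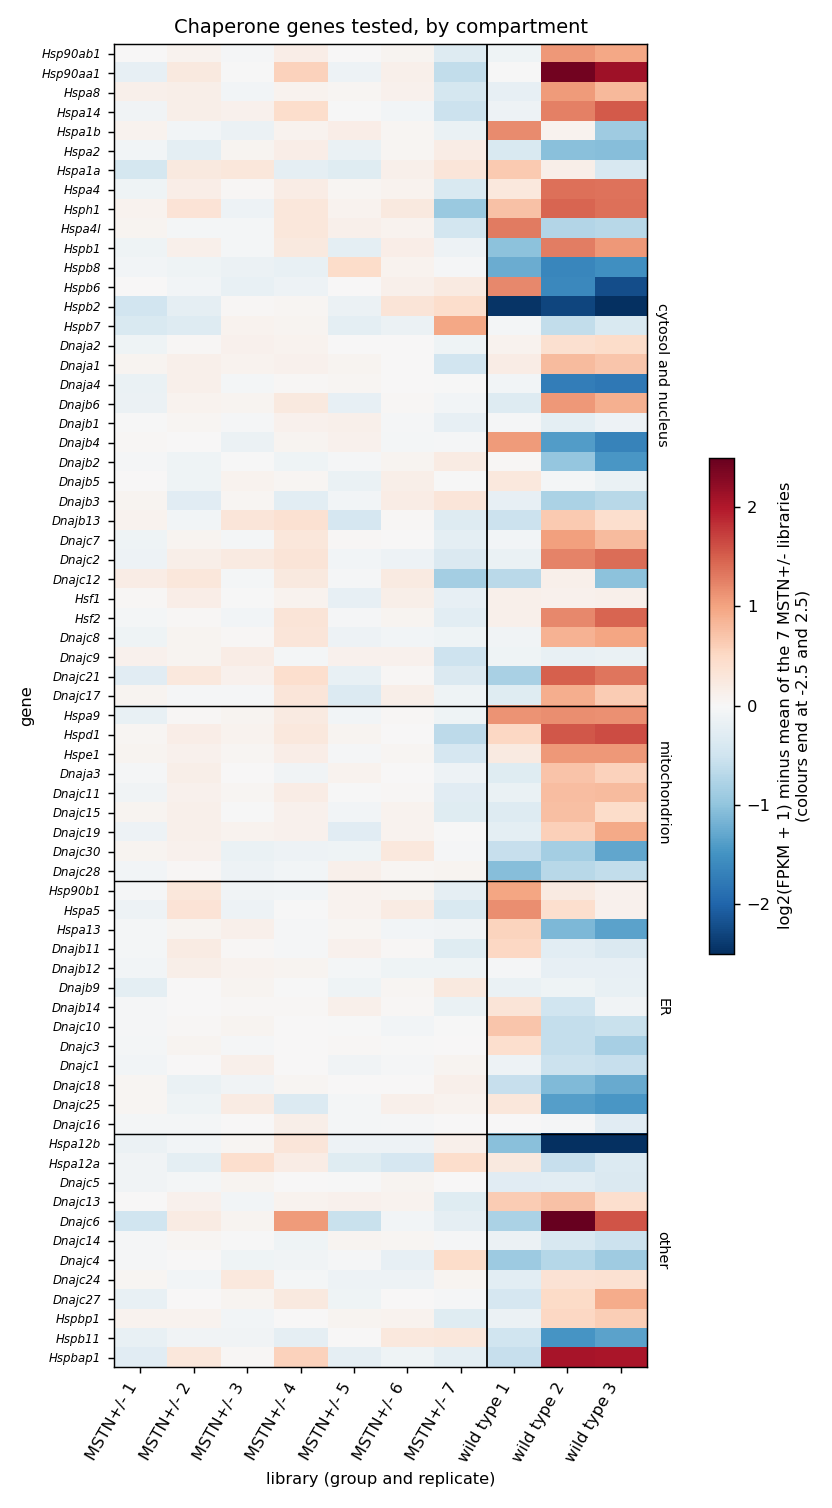
Level of each of the 68 chaperone genes tested (rows, by compartment) in the 10 libraries (columns), as log2(FPKM + 1) minus the mean of the 7 MSTN+/- libraries; red is higher, blue is lower. Wild-type replicates 2 and 3 are alike and differ from replicate 1, most plainly in the ER block. There replicate 1 lay above the MSTN+/- range for 8 of 13 genes, against 19.8% of all genes tested.

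The cytosolic HSP90 genes separated wild-type replicates 2 and 3 from all other libraries. Hsp90aa1 (gene 15519), the stress-inducible paralog, had a lowest, median and highest value of 213.50, 324.52 and 488.66 FPKM among the MSTN+/- libraries. It was at 323.96, 1733.44 and 1418.59 FPKM for wild-type replicates 1, 2 and 3. Replicate 1 thus sat at the MSTN+/- median, and the mean of replicates 2 and 3 was 4.69 times the MSTN+/- mean. The log2 change of MSTN+/- against all wild-type libraries was -1.50 ± 0.45 (SE; limma adjusted p = 0.0226). It was -2.26 against replicates 2 and 3 (limma adjusted p = 1.876e-05) and 0.01 against replicate 1 (limma adjusted p = 0.979), and the call was lost without replicate 2 (0.122) or replicate 3 (0.111).

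Hsp90ab1 (gene 15516), the constitutive paralog, was lower by less. Its MSTN+/- values ran from 937.26 to 1327.63 FPKM with a median of 1189.89 FPKM. Wild-type replicates 1, 2 and 3 had 1090.18, 2491.83 and 2296.08 FPKM, so replicate 1 again fell within the MSTN+/- range. The log2 change was -0.65 ± 0.23 (SE; limma adjusted p = 0.0429) and 0.11 against replicate 1 alone (limma adjusted p = 0.605). The call was lost without any 1 library other than wild-type replicate 1, at limma adjusted p of 0.0518 to 0.211, and without a low-value filter (0.0875). The share of Hsp90aa1 in the FPKM of the pair was 18.6% to 26.9% in the MSTN+/- libraries, 22.9% in wild-type replicate 1, and 41.0% and 38.2% in replicates 2 and 3.

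Cytosolic HSP70 was carried by Hspa8 (gene 15481), the constitutive HSC70. It was at 983.42 to 1487.37 FPKM among the MSTN+/- libraries (median 1414.51), and at 1165.38, 2795.88 and 2352.60 FPKM for wild-type replicates 1, 2 and 3. Replicates 2 and 3 lay above all other libraries, but with all wild-type libraries in the fit the log2 change of -0.56 missed the threshold (limma adjusted p = 0.0851). It passed against replicates 2 and 3, at -0.94 (limma adjusted p = 2.299e-04), and in the group fit after median-of-ratios, TPM or quantile scaling (0.0149, 0.0403 and 0.0484).

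The heat-inducible HSP70 genes were low. Hspa1b was at 4.45 to 5.91 FPKM among the MSTN+/- libraries and at 13.03, 5.54 and 2.32 FPKM across the wild-type libraries in order. Hspa1a was at 2.14 to 4.28 FPKM, against 5.71, 3.74 and 2.23 FPKM. Wild-type replicate 1 had the highest value of both, and the log2 change against it was -1.19 for Hspa1b (limma adjusted p = 3.002e-04) and -0.65 for Hspa1a (0.106). These are near-identical copies, and reads may be split between them and Hspa1l.

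Among the other cytosolic HSP70 genes, Hspa14, a ribosome-associated member, resembled the HSP90 genes. It was at 18.04 to 36.44 FPKM among the MSTN+/- libraries and at 24.29, 65.21 and 78.12 FPKM for wild type, a log2 difference of -0.89 (limma adjusted p = 0.0442) that was 0.12 against replicate 1 alone (0.744). Its call was also lost without a low-value filter (0.06), without wild-type replicate 2 or 3, and without any single one of MSTN+/- replicates 1, 2, 3, 5, 6 and 7 (limma adjusted p of 0.0615 to 0.219). Hspa2, best known from testis, went the other way, at 4.32 to 6.13 FPKM against 3.82, 2.04 and 1.99 FPKM, a log2 difference of 0.83 (limma adjusted p = 0.0035) that was 0.38 against replicate 1 alone (0.111) and 0.39 after quantile normalization (0.0835).

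The HSP110 genes, nucleotide exchange factors that release ADP from HSP70, were highest in wild-type replicates 2 and 3 for both abundant members. Hspa4 had 52.58 to 78.55 FPKM among the MSTN+/- libraries, and 82.94, 180.28 and 178.71 FPKM across the wild-type libraries in order. Its log2 change was -1.0 ± 0.23 (SE; limma adjusted p = 0.00635). Hsph1 had 13.19 to 33.61 FPKM, against 44.07, 73.60 and 69.79 FPKM, a log2 difference of -1.19 (limma adjusted p = 0.00615). For both genes all 3 wild-type libraries lay above all 7 MSTN+/- libraries, and replicate 1 lay nearest to them. Against replicate 1 alone the changes were -0.26 and -0.73, not past the threshold (limma adjusted p of 0.278 and 0.162). Hspa4l, the third member, was high in replicate 1 instead, at 9.83 FPKM against 1.64 and 1.74 FPKM in replicates 2 and 3 and 2.20 to 4.35 FPKM among the MSTN+/- libraries.

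**Figure D2:**
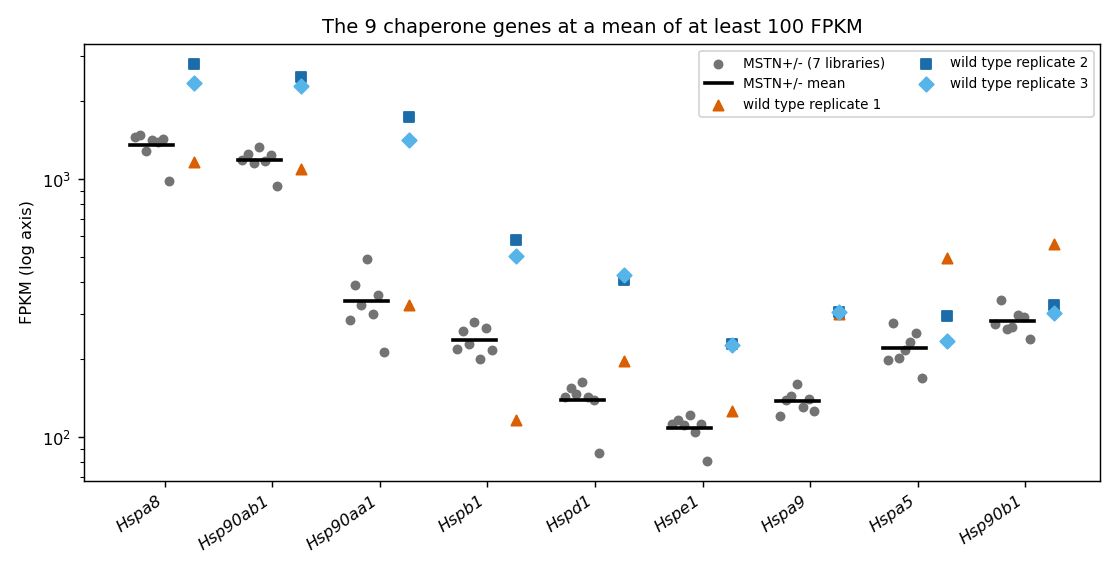
FPKM (log axis) of the 9 chaperone genes at a mean of at least 100 FPKM; grey points are the 7 MSTN+/- libraries, the bar is their mean, and coloured symbols are the single wild-type libraries. Wild-type replicates 2 and 3 lie above all MSTN+/- libraries for the first 7 genes, and replicate 1 lies highest for Hspa5 and Hsp90b1.

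The 3 mitochondrial chaperones Hspa9, Hspd1 and Hspe1 were lower in the MSTN+/- libraries, and the wild-type values of Hspa9 were close to each other. Hspa9 (gene 15526), mortalin, pulls imported proteins into the matrix. Its MSTN+/- values ran from 120.82 to 160.60 FPKM with a median of 139.50 FPKM, and the wild-type libraries had 300.08, 305.79 and 305.47 FPKM. No library of either group overlapped the other, and the groups were 137.53 ± 13.21 FPKM (SD, n = 7) and 303.78 ± 3.21 FPKM (SD, n = 3). The log2 change was -1.14 ± 0.10 (SE; limma adjusted p = 1.722e-05), and -1.13 against replicate 1 alone (limma adjusted p = 2.671e-04). This was the 1 abundant chaperone gene whose call held in every alternative run.

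The chaperonin genes Hspd1 (gene 15510, HSP60) and Hspe1 (gene 15528, its lid HSP10) are next to each other in the cattle annotation. Hspd1 had 86.84 to 164.00 FPKM among the MSTN+/- libraries (median 142.96), and 196.99, 404.75 and 424.73 FPKM for wild-type replicates 1, 2 and 3. Hspe1 had 80.75 to 121.21 FPKM (median 111.99), and 125.92, 229.63 and 227.93 FPKM. In both genes replicate 1 stood just above the MSTN+/- range and replicates 2 and 3 well above it. The log2 changes were -1.23 (limma adjusted p = 0.00366) and -0.80 (0.00856), and against replicate 1 alone -0.52 (0.151) and -0.22 (0.349). Hspd1 per Hspe1, a ratio of FPKM, was 1.08 to 1.36 in the MSTN+/- libraries and 1.56, 1.76 and 1.86 in the wild-type libraries, with no overlap.

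The mitochondrial J-domain genes did not share that order. Dnaja3, the partner of HSPA9 in the matrix, had 22.29 to 26.91 FPKM among the MSTN+/- libraries, 19.51 FPKM in wild-type replicate 1, and 40.34 and 36.88 FPKM in replicates 2 and 3. Dnajc11, linked to the inner membrane folds, and the import motor genes Dnajc19 and Dnajc15 had the same pattern, above the MSTN+/- range in replicates 2 and 3 and within or below it in replicate 1. None of these 4 passed the threshold in the group comparison (limma adjusted p of 0.0784 to 0.24), and all 4 did against replicates 2 and 3, with log2 changes of -0.61 to -0.78. Dnajc30 and Dnajc28 were instead higher in the MSTN+/- libraries. Dnajc30 had 17.66 to 24.34 FPKM against 13.11, 10.61 and 7.58 FPKM, a log2 difference of 0.91 (limma adjusted p = 0.00126). Dnajc28 had 1.38 to 1.84 FPKM against 0.24, 0.59 and 0.68 FPKM, a log2 difference of 0.79 (0.00116) that was 0.10 after quantile normalization (0.592). Of the 9 mitochondrial genes, 2 were higher and 7 lower in the MSTN+/- libraries against wild-type replicates 2 and 3, and 2 higher and 1 lower against replicate 1, where the shares of all genes were 42.2% and 31.9%, and 33.7% and 10.8%.

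The ER was the only compartment whose summed level was highest in wild-type replicate 1. Of its 13 genes, replicate 1 lay above the MSTN+/- range for 8 and below it for 2, against 19.8% and 50.0% of all genes tested. Hspa5 (gene 14828), BiP, the HSP70 of the ER lumen and a standard marker of ER stress, had 169.18 to 277.40 FPKM among the MSTN+/- libraries (median 217.26). The wild-type libraries had 492.90, 293.61 and 236.57 FPKM in order, so replicate 3 lay within the MSTN+/- range and replicate 1 was 2.22 times the MSTN+/- mean. The log2 change missed the threshold with all wild-type libraries, at -0.56 (limma adjusted p = 0.0585), and passed against replicate 1 alone, at -1.17 (0.00265).

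Hsp90b1 (gene 22027), the HSP90 of the ER, had 238.85 to 339.47 FPKM (median 274.49) in the MSTN+/- libraries, and 557.88, 325.36 and 303.33 FPKM across the wild-type libraries. Replicate 1 was again alone above the rest, and replicates 2 and 3 fell within the MSTN+/- range. The log2 change was -0.44 (limma adjusted p = 0.0736) in the group comparison and -0.99 (0.00109) against replicate 1 alone. Both Hspa5 and Hsp90b1 passed in the group comparison after median-of-ratios scaling (limma adjusted p of 0.0229 and 0.0264) or without wild-type replicate 3 (0.0248 and 0.0441).

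Set against the cytosolic paralogs, the ER genes gave ratios at 3 levels. Hsp90b1 per 100 FPKM of Hsp90ab1 was 20.2 to 27.1 in the MSTN+/- libraries, 51.2 in wild-type replicate 1, and 13.1 and 13.2 in replicates 2 and 3. Hspa5 per 100 FPKM of Hspa8 was 13.7 to 18.7, then 42.3, 10.5 and 10.1. On both ratios replicates 2 and 3 lay below, and replicate 1 above, all 7 MSTN+/- libraries. In replicates 2 and 3 neither Hspa5 nor Hsp90b1 was itself below the MSTN+/- range, while Hspa8 and Hsp90ab1 lay above it.

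**Figure D3:**
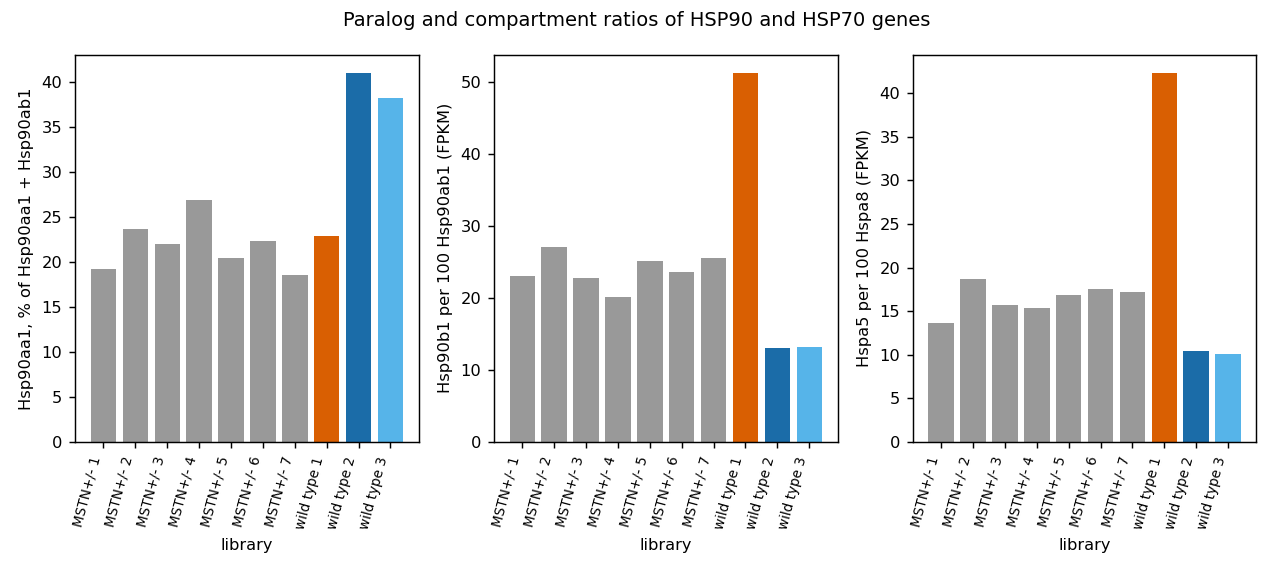
Bars show, for each library, Hsp90aa1 as a percentage of Hsp90aa1 + Hsp90ab1 (left), Hsp90b1 per 100 FPKM of Hsp90ab1 (middle) and Hspa5 per 100 FPKM of Hspa8 (right). The Hsp90aa1 share is highest in wild-type replicates 2 and 3, at 41.0% and 38.2%, and both ER ratios are highest in replicate 1, at 51.2 and 42.3.

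Of the 10 J-domain genes of the ER lumen and membrane, 6 lay below the MSTN+/- range in both wild-type replicates 2 and 3: Dnajb12, Dnajc1, Dnajc3, Dnajc10, Dnajc18 and Dnajc25. The other 4, Dnajb9, Dnajb11, Dnajb14 and Dnajc16, did not, and 42.0% of all genes tested lay below that range in both. Dnajc10 (ERdj5), a disulfide reductase, had 23.91 to 26.32 FPKM among the MSTN+/- libraries, and 40.85, 16.34 and 16.74 FPKM across the wild-type libraries. Dnajc3 (P58IPK), which restrains the kinase PERK, had 16.66 to 18.03 FPKM, against 23.31, 11.11 and 9.27 FPKM. For both genes replicate 1 lay above and replicates 2 and 3 below all 7 MSTN+/- libraries, which differed little among themselves, with coefficients of variation of 3.17% and 2.63%. The group comparison gave log2 changes of 0.15 and 0.34, not past the threshold (limma adjusted p of 0.615 and 0.223). Against replicates 2 and 3 alone the changes were 0.57 and 0.71, and against replicate 1 alone -0.68 and -0.41, all 4 past it.

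The ER genes Hspa13, an HSP70-like ATPase, and Dnajb11 (ERdj3), a cofactor of BiP, also had opposite calls in the 2 fits. Hspa13 had 11.64 to 13.72 FPKM, against 18.71, 5.19 and 4.33 FPKM, and Dnajb11 had 32.45 to 46.57 FPKM, against 58.49, 33.44 and 31.00 FPKM. Dnajb9 (ERdj4), a target of the unfolded protein response, had 12.87 to 18.59 FPKM, against 13.77, 14.39 and 13.44 FPKM, and passed in neither fit. The 2 ER genes that rose in the group comparison were Dnajc18, at 7.95 to 9.98 FPKM against 5.71, 3.69 and 3.17 FPKM, and Dnajc1, at 12.31 to 14.35 FPKM against 11.96, 8.78 and 8.48 FPKM. Their log2 changes were 0.98 (limma adjusted p = 5.091e-04) and 0.41 (0.0158), and that of Dnajc1 was 0.13 against replicate 1 alone (0.363) and missed the threshold after all 3 rescalings (0.0517 to 0.21). It also missed it without wild-type replicate 2 or 3 (0.0731 and 0.0762). Of the 13 ER genes 8 were higher and 0 lower in the MSTN+/- libraries against wild-type replicates 2 and 3, while 1 was higher and 6 lower against replicate 1. Of all genes tested, 42.2% and 31.9% were higher and lower in the first of these fits, and 33.7% and 10.8% in the second. The summed level of all ER members was 576 to 800 FPKM among the MSTN+/- libraries and 1267, 742 and 657 FPKM for wild type.

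**Figure D4:**
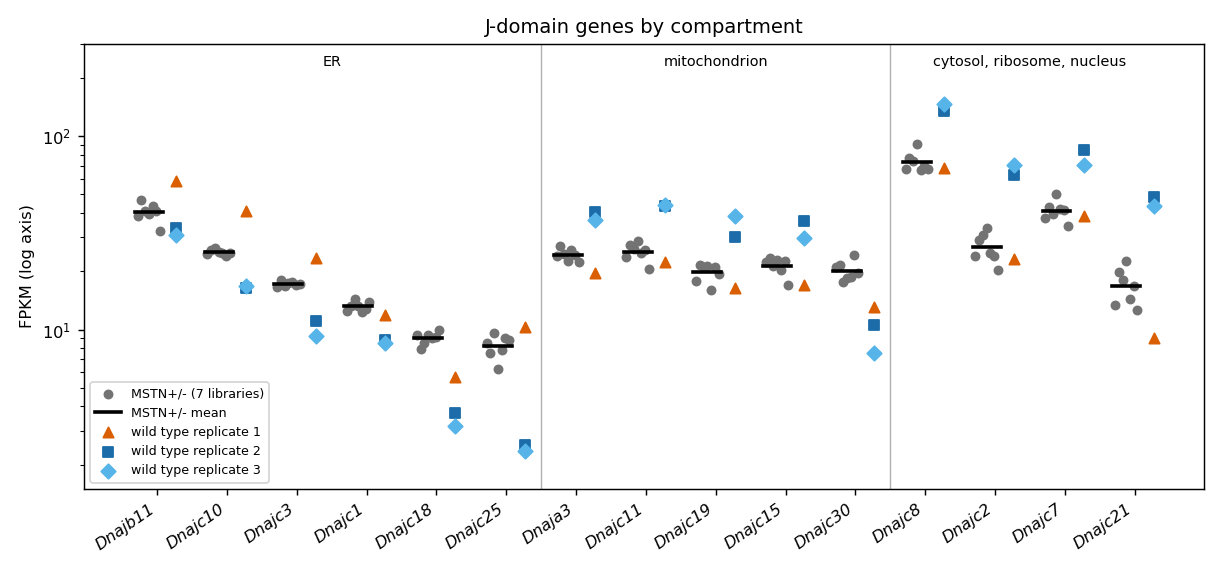
FPKM (log axis) of 15 J-domain genes of the ER, the mitochondrion, and the cytosol, ribosome and nucleus; grey points are the 7 MSTN+/- libraries, the bar is their mean, and coloured symbols are the single wild-type libraries. Wild-type replicate 1 is highest for Dnajb11, Dnajc10, Dnajc3 and Dnajc25, and replicates 2 and 3 are highest for the genes on the right.

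The small heat shock proteins, which hold unfolding proteins in oligomers, did not all share the same order of libraries. Only genes with an HSPB symbol were taken. Hspb1 (gene 15507, HSP25 in mouse), the most abundant of these, had 199.96 to 279.27 FPKM among the MSTN+/- libraries. It had 116.42, 579.63 and 504.64 FPKM for wild-type replicates 1, 2 and 3. Replicate 1 lay below and replicates 2 and 3 above all 7, so that the log2 change was -0.45 for all wild-type libraries (limma adjusted p = 0.378), -1.19 against replicates 2 and 3 (1.643e-05) and 1.02 against replicate 1 (0.00137).

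Hspb8 (gene 80888), which works with the cochaperone BAG3 in clearing damaged filament proteins, was higher in the MSTN+/- libraries than in every wild-type library. It had 75.67, 82.25 and 119.38 FPKM as lowest, median and highest value, and 35.98, 27.11 and 29.17 FPKM for wild type. The log2 change was 1.47 ± 0.15 (SE; limma adjusted p = 4.719e-05). Per 100 FPKM of Hspb1, Hspb8 was 27.1 to 59.7 in the MSTN+/- libraries, 30.9 in wild-type replicate 1, and 4.68 and 5.78 in replicates 2 and 3.

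Hspb2 (gene 69253), known from heart and skeletal muscle, had the largest log2 change of the 68 chaperone genes in the group comparison, while against wild-type replicates 2 and 3 alone Hspa12b was at 3.0 and Hspb2 at 2.74. The MSTN+/- values were 9.90 to 19.70 FPKM with a median of 14.39 FPKM, and the wild-type values 1.77, 2.11 and 0.66 FPKM, with no overlap. The log2 change was 2.64 ± 0.24 (SE; limma adjusted p = 1.972e-05), and 2.45 against replicate 1 alone (2.080e-04). Hspb6 (HSP20), a phosphoprotein of smooth and striated muscle, had 12.19 to 16.64 FPKM, against 33.56, 3.95 and 2.25 FPKM. Its log2 change was 0.88 with all wild-type libraries (limma adjusted p = 0.225), 1.91 without replicate 1 and -1.19 against it alone. Hspb7 stayed at 0.50 to 2.82 FPKM among the MSTN+/- libraries, and Hspb3 and Hspb9 never reached 1 FPKM.

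**Figure D5:**
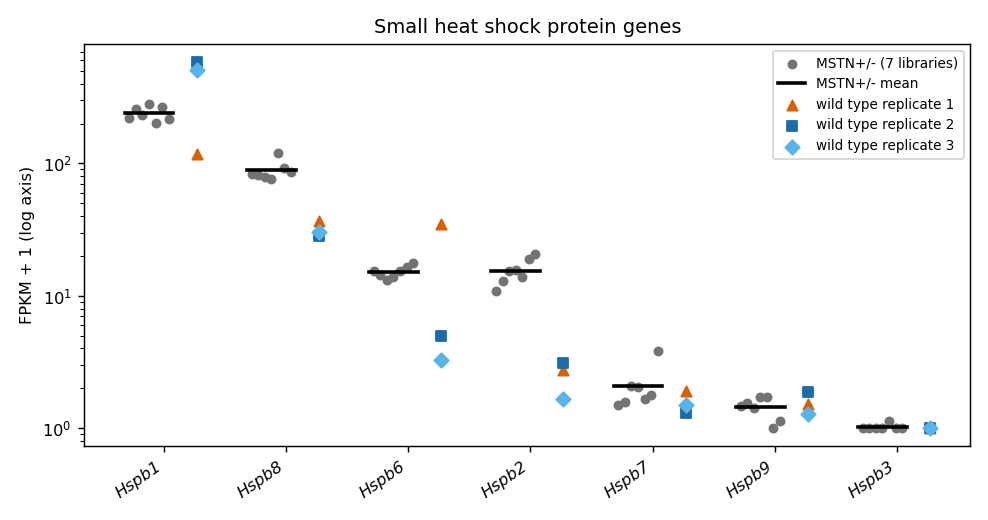
FPKM + 1 (log axis) of the 7 small heat shock protein genes taken by HSPB symbol. Grey points are the 7 MSTN+/- libraries, the bar is the mean of their values, and coloured symbols are the single wild-type libraries. All 3 wild-type libraries lie below the MSTN+/- range for Hspb8 and Hspb2, while Hspb1 and Hspb6 have wild-type libraries on both sides.

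Of the cytosolic J-domain genes, the general partners of HSP70 Dnaja1 and Dnaja2 were lower in the MSTN+/- libraries. Dnaja1 had 36.99 to 57.42 FPKM among the MSTN+/- libraries, and 59.50, 91.11 and 85.29 FPKM for wild type, a log2 difference of -0.56 (limma adjusted p = 0.0221). Dnaja2 had 54.55 to 63.60 FPKM, against 62.53, 78.42 and 81.20 FPKM, a log2 difference of -0.31 (0.0343). Against replicate 1 alone these were -0.19 (0.491) and -0.08 (0.572), and both calls were lost without wild-type replicate 2 or 3 (0.0926 to 0.147). The call of Dnaja2 was also lost without any single one of MSTN+/- replicates 1, 2, 5, 6 and 7 (0.0549 to 0.0636). Dnaja4, the third of that class, was opposite, at 5.38 to 6.79 FPKM against 5.82, 1.16 and 1.06 FPKM. Its log2 change of 1.20 (limma adjusted p = 0.0119) was 0.07 against replicate 1 (0.689), and it missed the threshold without wild-type replicate 2 or 3 (0.0672 and 0.0669) or after quantile normalization (0.061).

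The heat-inducible Dnajb1 (HSP40) did not pass the threshold. It had 15.68 to 19.91 FPKM among the MSTN+/- libraries, and 17.93, 15.28 and 16.72 FPKM for wild type (log2 change 0.13 ± 0.10 SE; limma adjusted p = 0.319). Dnajb6, which suppresses aggregation and is mutated in a human limb-girdle muscular dystrophy, had 59.30 to 81.50 FPKM, against 54.55, 146.65 and 127.49 FPKM. Replicates 2 and 3 lay above all other libraries, with a log2 change against them of -0.98 (limma adjusted p = 3.363e-05), while the group comparison missed the threshold (0.107). Dnajb2, a neuronal J-domain protein that binds ubiquitin chains, had 8.67 to 11.07 FPKM, against 9.74, 4.32 and 2.84 FPKM. Its log2 change of 0.79 (limma adjusted p = 0.0272) was -0.04 against replicate 1 alone (0.837). It missed the threshold after median-of-ratios (0.0988) or quantile (0.141) scaling and without wild-type replicate 2 or 3 (0.106 and 0.138). Dnajb4 had 11.16 to 13.39 FPKM, against 27.10, 4.07 and 3.23 FPKM, the order also seen in Hspb6. The low gene Dnajb3 was also called higher, at 0.98 to 1.99 FPKM against 1.11, 0.40 and 0.50 FPKM (log2 change 0.56; limma adjusted p = 0.0318), but not against replicate 1 alone (0.20; limma adjusted p = 0.558).

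Of the 7 J-domain genes assigned to the ribosome, the HSP70 to HSP90 transfer, the nucleus and splicing, 5 lay above the MSTN+/- range in both wild-type replicates 2 and 3: Dnajc2, Dnajc7, Dnajc8, Dnajc17 and Dnajc21. The share of all genes tested that did so was 31.7%. Dnajc2 (zuotin), the partner of HSPA14 on the ribosome, had 20.30 to 33.33 FPKM among the MSTN+/- libraries, and 23.27, 63.35 and 70.80 FPKM for wild type. Dnajc7, which carries clients between HSP70 and HSP90, had 34.37 to 50.10 FPKM, against 38.77, 84.85 and 71.32 FPKM. Dnajc8, a splicing factor partner, had 66.70 to 91.10 FPKM, against 68.70, 134.61 and 146.16 FPKM. In these 3 genes replicate 1 lay within the MSTN+/- range, and the log2 changes were -0.82, -0.58 and -0.59 (limma adjusted p of 0.0481, 0.0457 and 0.0445). Against replicate 1 alone they were 0.17, 0.08 and 0.09. All 3 calls were lost without the low-value filter (0.0643, 0.059 and 0.0582), without wild-type replicate 2 or 3 (0.171 to 0.232), and without any single one of MSTN+/- replicates 1, 2, 3, 5, 6 and 7 (0.0611 to 0.0822). Dnajc2 was also lost without MSTN+/- replicate 4 (0.0507) and with a pseudocount of 0.1 (0.0501). Dnajc21, a ribosome biogenesis factor, had 12.61 to 22.49 FPKM, against 9.05, 48.43 and 43.30 FPKM, with opposite calls against replicate 1 (log2 change 0.80) and against replicates 2 and 3 (-1.42). Dnajc9, a histone chaperone, had 19.79 to 32.79 FPKM, against 26.87, 25.09 and 25.66 FPKM, and Dnajc12 had 1.08 to 3.56 FPKM, against 1.35, 3.11 and 0.85 FPKM. Neither gene passed in any of the 3 comparisons.

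Of the vesicle genes, Dnajc13, which acts in endosomal sorting, was lower in the MSTN+/- libraries, at 14.81 to 20.02 FPKM against 29.38, 31.42 and 25.08 FPKM. Its log2 change of -0.59 (limma adjusted p = 0.00308) was -0.63 against replicate 1 alone. Dnajc5, the synaptic vesicle chaperone CSP, was higher, at 30.01 to 33.28 FPKM against 26.13, 26.34 and 24.48 FPKM. The log2 change of 0.30 (limma adjusted p = 0.0119) was 0.10 after median-of-ratios scaling (0.376). The neuronal auxilin gene Dnajc6 had 0.23 to 2.75 FPKM among the MSTN+/- libraries, of which replicate 4 was highest, and 0.04, 10.75 and 4.34 FPKM across wild-type replicates 1 to 3, the lowest and the 2 highest values of the 10. It did not pass in the group comparison (limma adjusted p = 0.152). It did pass against wild-type replicates 2 and 3, with a log2 change of -2.13 (limma adjusted p = 8.738e-04).

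Of the remaining genes, 4 were higher in the MSTN+/- libraries. Hspa12b (gene 72630), an atypical HSP70 known from endothelium, had 11.28 to 15.80 FPKM against 5.62, 0.75 and 0.67 FPKM. Its log2 change was 2.35 ± 0.36 (SE; limma adjusted p = 6.744e-04), and 1.05 against replicate 1 alone (0.00118). Hspb11 (IFT25), a subunit of the ciliary transport complex, had 20.70 to 29.83 FPKM against 16.95, 8.11 and 8.99 FPKM, a log2 difference of 1.10 (limma adjusted p = 0.00224) that was 0.49 against replicate 1 (0.0701). Dnajc4 had 12.54 to 20.34 FPKM against 7.30, 8.45 and 7.42 FPKM (log2 change 0.84; limma adjusted p = 0.00107). Dnajc14 had 20.95 to 23.75 FPKM against 20.20, 16.76 and 15.32 FPKM (0.36; limma adjusted p = 0.0152), and its call was lost after all 3 rescalings (0.0596 to 0.314), against replicate 1 alone (0.233) and without replicate 2 or 3 (0.0575 and 0.0749). Hspbp1, an exchange factor of HSP70, and Hspbap1, named for binding HSPB1, did not pass in the group comparison. Hspbap1 had 3.59 to 7.34 FPKM against 2.75, 22.34 and 21.93 FPKM, and Hspbp1 had 15.90 to 21.13 FPKM against 17.62, 28.65 and 30.82 FPKM.

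The heat shock factors gave different results. Hsf1 (gene 15499) was at 22.26 to 29.12 FPKM among the MSTN+/- libraries (median 26.54), and at 28.23, 28.20 and 28.30 FPKM for wild type. The groups overlapped, with a log2 difference of -0.12 ± 0.11 (SE; limma adjusted p = 0.386), which was -0.33 after median-of-ratios scaling (0.0287). Hsf2 (gene 15500), a factor of development that can pair with HSF1, was at 6.51 to 10.17 FPKM, and at 8.77, 19.55 and 23.46 FPKM for wild type. Its log2 change was -0.92 (limma adjusted p = 0.0128), but -0.12 against replicate 1 alone (0.595). It missed the threshold without wild-type replicate 2 or 3 (0.0654 and 0.0705).

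Other genes of protein folding were counted from 5 lists, with 95 genes tested in all, 10 higher and 37 lower in the MSTN+/- libraries, where 31.8% and 12.8% of all genes were. Of 28 cochaperones of HSP70 and HSP90, 4 were higher and 15 lower, with a median log2 change of -0.43. The log2 changes of these 15 lower genes against wild-type replicate 1 alone were -0.89 for Hyou1 and -0.42 to 0.12 for the rest. The ER cochaperones split. Sil1, an exchange factor of BiP, had 30.68 ± 3.81 FPKM (SD, n = 7) against 11.63, 9.75 and 11.49 FPKM across the wild-type libraries. Its log2 difference was 1.40 (limma adjusted p = 1.375e-05). Hyou1 (GRP170), another exchange factor of BiP, had 38.79 ± 5.45 FPKM (SD, n = 7) against 71.99, 72.91 and 63.06 FPKM. Its log2 difference was -0.83 (limma adjusted p = 8.480e-04). Of 14 genes of the cytosolic chaperonin CCT and of prefoldin, 1 was higher and 7 lower (median -0.60). The 7 lower genes ran from -0.26 for Tcp1 to 0.10 for Cct3 against wild-type replicate 1 alone. The CCT subunit gene Tcp1 had 142.86 ± 10.68 FPKM (SD, n = 7), against 170.37, 229.10 and 256.93 FPKM across the wild-type libraries, a log2 difference of -0.59 (limma adjusted p = 0.00495) that was -0.26 against replicate 1 alone (0.121). The prefoldin gene Pfdn5 had 132.11 ± 11.00 FPKM (SD, n = 7) against 68.91, 77.93 and 75.36 FPKM (log2 change 0.82, limma adjusted p = 1.302e-04).

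Of 26 genes of ER folding and the unfolded protein response, 2 were higher and 7 lower, with a median of -0.03. The 2 genes with the smallest p were Trib3 and Atf4. Atf4, a transcription factor of the stress response, had 87.90 to 123.04 FPKM against 209.04, 215.21 and 269.73 FPKM, a log2 difference of -1.07 (limma adjusted p = 2.141e-04). Trib3, a pseudokinase gene that ATF4 can induce, had 4.05 to 9.09 FPKM against 34.01, 22.02 and 29.01 FPKM, a log2 difference of -1.93 (1.432e-04). For both genes all 3 wild-type libraries lay above all 7 MSTN+/- libraries, as with Hspa9 and unlike Hspa5. The same held for Chac1 of this list, at 2.81 to 6.70 FPKM against 26.82, 13.51 and 26.14 FPKM (log2 change -1.95, limma adjusted p = 5.025e-04). It held for Ppp1r15a too, at 15.20 to 24.28 FPKM against 38.05, 35.56 and 35.36 FPKM (-0.89, limma adjusted p = 7.992e-04). Ddit3 (CHOP), another gene that ATF4 can induce, had 18.19 to 26.43 FPKM against 47.23, 13.17 and 11.09 FPKM and did not pass (log2 change 0.23; limma adjusted p = 0.617). Eif2ak3, the gene of the kinase PERK, was higher, at 9.22 to 11.97 FPKM against 8.55, 7.67 and 6.25 FPKM (0.43; limma adjusted p = 0.0151). Of 19 mitochondrial import and quality control genes, 1 was higher and 6 lower (median -0.32), among them the matrix protease gene Lonp1, at 28.15 to 36.56 FPKM against 47.17, 60.07 and 67.37 FPKM (log2 change -0.78; limma adjusted p = 8.539e-04). The import channel gene Tomm40 had 42.20 to 61.67 FPKM against 65.30, 120.97 and 125.34 FPKM (-0.89; 0.00556), but -0.28 against replicate 1 alone (0.222). Of 8 genes of heat shock factor control, 2 were higher and 2 lower (median 0.13). Hsbp1, which binds HSF1, had 64.32 to 80.39 FPKM against 55.34, 35.74 and 31.55 FPKM (log2 change 0.85; limma adjusted p = 0.00197). The deacetylase gene Sirt1 had 4.35 to 8.30 FPKM against 6.18, 44.48 and 43.66 FPKM (-1.82; 0.0146), with -0.05 against replicate 1 alone (0.895), and missed the threshold without replicate 2 or 3 (0.0825 and 0.0818).

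Within the MSTN+/- group the chaperone genes varied by a median of 11.8% (coefficient of variation over 7 libraries), against 13.2% for all genes tested. Replicate 7 was the lowest of the 7 for 29 of the 68 genes and the highest for 12, where 28.8% and 18.4% of all genes were. The genes lowest there included Hspa8, Hsp90aa1, Hsp90ab1, Hspa5, Hsp90b1, Hspd1, Hspe1 and Hsph1, from all 3 compartments, but not Hspa9 or Hspb1. Replicate 4 was the highest for 23 of the 68, where 28.0% of all genes were. It had the highest Hsp90aa1, Hspa14, Dnajc2, Dnajc21 and Hsf2 of the 7, and the highest value for 8 of the 10 pluripotency markers. No test was made of that coincidence.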

How the data were processed

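The authors deposited 1 table with an FPKM value per gene and library, per the file headers, rounded to 2 decimals. The aligner, build and any filter used were not given in the sources used here. It holds no counts, which bars a count test, and the total depth of a library is unknown. Steps of single fragments put relative depth at 1 to 1.20 times that of MSTN+/- replicate 1, from a search near equal depth only. Candidates were 2527 low genes, of which 89 to 205 could be compared with that replicate in each other library. FPKM totals ran from 402716 to 464418.

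Groups came from the genotype label, and replicate numbers follow the order of the sample records. Nothing in the labels says that libraries came from separate animals, and a p-value here covers only library-to-library spread, possibly technical. The fit used limma 3.58.1 in R 4.3.3, run on log2(FPKM + 1), with an intensity trend, 8 residual degrees of freedom and Benjamini-Hochberg adjustment over all genes that reached 1 FPKM in 3 libraries or more. The procedure was run on simulated data, with independent normal values and the same spread in both groups for each gene. That setting lacked the split among the wild-type libraries, so it cannot show that the calls hold here. Alternatives were 3 rescalings, a pseudocount of 0.1, 2 other filters, robust empirical Bayes, library weights, wild-type replicate 1 alone, and leaving out each library. Figures used matplotlib 3.10.9.

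Members, lists and the rule for named genes were chosen with earlier results of these data known. Named were the HSP90 genes, Hsf1 and Hsf2, the 2 most abundant genes of each family and compartment, and the 12 largest called changes in each direction among those averaging 5 FPKM or more in either group. The 5 genes with wild-type replicate 1 farthest above the rest and the 5 farthest below, and the 2 smallest p of each other list, were added. Other members named in the text complete their class. These members, and the other list genes named, were chosen after their values were seen. Families and compartments were assigned by hand from general knowledge. The deposited component annotation named the ER for 4 of the 13 genes assigned to it, and the mitochondrion for 4 of 9. Others had no such annotation, such as Dnajc10, or one without that name, such as Hspa13.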

Additional observations from a re-analysis of the deposited data

Results flagged for a closer look

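Within the 7 MSTN+/- libraries, 9 single values stood apart from the other 6 by Dixon's criterion for a lone extreme, among 64 genes examined. Chance gives about 1 in 20 for independent groups, but genes of the same libraries are not independent. No rate over all genes is given. Replicate 7 supplied 8 of the 9, and over all genes tested it was the lowest of the 7 for 28.8% and the highest for 18.4%. It was lowest for Hspa8, at 983.42 FPKM with the next at 1284.15, for Hspd1, at 86.84 with the next at 139.02, and for Hspe1, at 80.75 with the next at 104.82. It was also lowest for Dnaja1 (36.99 FPKM, next 52.36), Dnajc9 (19.79, next 27.94) and the chaperonin gene Tcp1 (121.32, next 140.04). It was highest for Dnajc4, at 20.34 FPKM with the next at 14.68, and for Sil1, at 38.88 with the next at 31.63. Replicate 5 was highest for Hspb8, at 119.38 FPKM with the next at 91.41. Without replicate 7, 14 of the 15 higher and 9 of the 15 lower chaperone calls remained, and 9 lower calls also remained without replicate 1, 2, 5 or 6.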

How the results depend on the processing

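Of 64 named genes tested, 15 kept their direction and their side of the threshold in every alternative that could be fitted. The count of chaperone genes higher in the MSTN+/- libraries (15) was 8 after quantile normalization and 23 with library weights, and 10 to 24 with 1 library left out. The count lower (15) was 27 after median-of-ratios scaling, 25 after quantile normalization, 28 with library weights, 10 without a low-value filter, and 6 to 29 with 1 library left out. Over all genes, 2870 were higher after quantile normalization in place of 4468. Lower genes (1800) numbered 3230 after median-of-ratios scaling, 3850 after quantile normalization, 3368 with library weights, and 791 to 4449 with 1 library left out. Among the other folding genes the higher count (10) was 4 after median-of-ratios scaling, 22 with library weights, and 6 to 26 with 1 library left out. The lower count (37) was 17 to 57 with 1 library left out. The extremes came from leaving out wild-type libraries. Against wild-type replicate 1 alone, some of the folding genes called lower changed little, such as Fkbp4 (log2 change -0.03). Some not called were lower, such as Calr (-0.67). In the library weights fit, whose estimation stopped before convergence, wild-type replicates 1, 2 and 3 had weights of 0.0364, 0.1 and 0.896. The wild-type side of that fit thus rested mostly on replicate 3.

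Against wild-type replicate 1 alone the log2 change turned for Dnajb11 (-0.53), Dnajb2 (-0.04), Dnajb4 (-1.07), Dnajc10 (-0.68), Dnajc3 (-0.41), Hspa13 (-0.55), Hspa4l (-1.30), Hspb6 (-1.19) and Hspa12a (-0.25). It turned the other way for Dnajc2 (0.17), Dnajc21 (0.80), Dnajc7 (0.08), Dnajc8 (0.09), Hsp90aa1 (0.01), Hsp90ab1 (0.11), Hspa14 (0.12), Hspb1 (1.02), Hspa8 (0.20), Dnajb6 (0.33), Dnaja3 (0.30), Dnajc11 (0.16), Dnajc15 (0.31), Dnajc27 (0.43), Hspbap1 (0.58) and Hspbp1 (0.15). The sign also turned, for genes not past the threshold in either fit except Hspa1b with library weights (0.72), under median-of-ratios scaling for Dnajb1 (-0.08), Dnajb11 (-0.18), Dnajb12 (-0.06), Dnajc10 (-0.06), Dnajc9 (-0.06) and Hspa4l (-0.13), under quantile normalization for Hspa12a (-0.35) and Hspa4l (-0.40), and under TPM rescaling for Dnajb11 (-0.02). With 1 library left out the log2 change ran from -0.13 to 0.31 for Dnajb11, from -0.07 to 0.57 for Dnajc10, from -0.64 to 0.40 for Hspa1b and from -0.30 to 0.71 for Hspa4l. The fit against wild-type replicate 1 leaves out the other 2 wild-type libraries, and beyond that the cause was not tested. Over all genes tested the median was 0.17 with the deposited values, 0.00 under median-of-ratios scaling and -0.10 under quantile normalization (log2). No paired analysis was possible because the replicate numbers come from record order, not from the labels. Depth is unknown, so low genes such as Hspb7 and Dnajc28 carry a counting error that cannot be given.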
